A study of Mus musculus with 7 samples.

Results

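The nuclear factor I (NFI) genes *Nfia*, *Nfib*, *Nfic* and *Nfix*, together with the zinc finger gene *Zbtb20*, were followed in mRNA of sorted mouse neocortical cells. They were chosen by name, and all 5 were found in the count table of 38124 genes and passed the filter that left 16522 genes for testing. The libraries came from heterozygous Tis21-CreERT2 mouse embryos, in which a tamoxifen-inducible Cre replaces exon 1 of *Tis21*, a gene active in progenitors that are about to produce basal progenitors or neurons. Tamoxifen was given to the mothers of both groups, and the neocortex was electroporated in utero at E13.5 (embryonic day). The control construct switched on nuclear red fluorescent protein (RFP) after recombination, whereas the Sox9 construct switched on Sox9 together with nuclear RFP. After 48 hours, at embryonic day 15.5, RFP-expressing cells were sorted, which gave 3 control libraries (replicates 1, 2 and 4) and 4 Sox9 libraries (replicates 1 to 4). Each library pooled electroporated cortices of embryos from several mothers, so one library is one pool and not one animal. Both groups carry the same single *Tis21* replacement, and the cells sampled were those that recombined and were bright for RFP.

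NFI proteins bind DNA as dimers at a palindromic sequence and activate or repress nearby genes. In the embryonic brain and spinal cord they move progenitors from making neurons towards making glia, and NFIA acts there with Sox9, a transcription factor of the SOX family that is present in neural progenitors and needed for the switch to gliogenesis. NFIA, NFIB and NFIX are strongly expressed in the developing neocortex, also in young neurons, where their loss delays differentiation and impairs the corpus callosum and hippocampus. ZBTB20 belongs to the BTB zinc finger proteins, which mostly repress transcription, and it is known from the hippocampus, from late cortical progenitors and from astrocyte formation.

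Total counts ranged from 10465562 to 12907778 in the control libraries and from 4429704 to 10520214 in the Sox9 libraries. Levels below are CPM, that is read counts brought to the same library total, with library sizes scaled by the trimmed mean of M-values (TMM). The TMM factors were 0.893 to 0.941 in control and 1.01 to 1.10 in the Sox9 libraries. This scaling lowers CPM in the Sox9 libraries relative to control. A gene was called when its adjusted p in edgeR's quasi-likelihood test with Benjamini-Hochberg adjustment was under 0.01. The single *Sox9* row did not rise in the libraries labelled Sox9. Its level was 63.9 CPM ± 27.5 (SD, n = 3) in control and 40.0 CPM ± 8.33 (SD, n = 4) in the Sox9 libraries. The log2 fold change was -0.68 ± 0.25 (SE), with an adjusted p of 0.0493 in edgeR's test, which is not a call. The groups overlapped, and without control replicate 1 the value was -0.99 (adjusted p 0.00281) and without control replicate 2 it was -0.37 (adjusted p 0.289). The row thus did not show the rise that the label would give. Whether reads from the Sox9 of the construct are counted in this row is not known, so the row cannot settle how far the construct was expressed, and the groups are named below by label. *Tubb3*, a neuronal tubulin, had 7186 CPM in control and 6800 CPM in the Sox9 libraries. The progenitor genes *Pax6* and *Sox2* had 68.4 CPM and 6.41 CPM in control and 30.9 CPM and 3.18 CPM in the Sox9 libraries, so the cells labelled neural progenitors held neuronal and progenitor mRNA in both groups.

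On the GRCm38 (mm10) assembly all 5 genes are protein coding. *Nfia* (ENSMUSG00000028565) lies on the plus strand at chr4:97772734-98118874 and *Nfib* (ENSMUSG00000008575) on the minus strand at chr4:82290173-82705750. *Nfic* (ENSMUSG00000055053) is at chr10:81396186-81455635 and *Nfix* (ENSMUSG00000001911) at chr8:84699876-84800344, both on the minus strand. *Zbtb20* (ENSMUSG00000022708) lies on the plus strand at chr16:42875881-43642602. The genes differ greatly in length, from 59.4 kb for *Nfic* to 766.7 kb for *Zbtb20*, while their exons cover from 6.63 kb (*Nfic*) to 30.73 kb (*Zbtb20*).

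RefSeq promoter windows of 300 bases (GRCm38.p6) were given for *Nfia*, *Nfic*, *Nfix* and *Zbtb20*, 7 windows in all, of which 4 belong to *Nfix*. The windows of *Zbtb20*, the member with the largest difference between the groups, and of *Nfia*, the member with the highest level per exonic kb, are printed. They are followed by the *Nfix* window that holds a SOX core motif. Capitals mark that motif, and the sequences run from 5′ to 3′ on the strand of the gene.
Zbtb20, chr16:43247034-43247333, plus strand: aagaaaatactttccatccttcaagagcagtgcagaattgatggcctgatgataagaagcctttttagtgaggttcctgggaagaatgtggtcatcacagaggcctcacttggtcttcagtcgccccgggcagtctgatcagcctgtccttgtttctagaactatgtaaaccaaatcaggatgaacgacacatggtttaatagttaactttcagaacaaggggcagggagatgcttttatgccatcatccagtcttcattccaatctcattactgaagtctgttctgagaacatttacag
Nfia, chr4:97581693-97581992, plus strand: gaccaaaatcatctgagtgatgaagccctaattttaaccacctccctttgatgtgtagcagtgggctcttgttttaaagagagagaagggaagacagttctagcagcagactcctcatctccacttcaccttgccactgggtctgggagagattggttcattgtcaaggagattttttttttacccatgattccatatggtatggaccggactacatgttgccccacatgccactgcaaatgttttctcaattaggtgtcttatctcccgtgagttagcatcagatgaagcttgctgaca
Nfix, chr8:84775779-84776078, minus strand: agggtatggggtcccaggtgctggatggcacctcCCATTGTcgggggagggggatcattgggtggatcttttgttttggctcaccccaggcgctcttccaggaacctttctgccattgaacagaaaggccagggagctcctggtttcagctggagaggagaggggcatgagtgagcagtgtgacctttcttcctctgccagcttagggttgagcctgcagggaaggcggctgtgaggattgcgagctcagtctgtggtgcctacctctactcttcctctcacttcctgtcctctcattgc
The *Zbtb20* window starts 371.2 kb inside the annotated gene, and its GC content was 43.3%. The *Nfia* window lies at -191.0 kb from the annotated gene start, that is upstream of it, with a GC content of 44.7%. No NFI palindrome (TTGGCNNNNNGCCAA) and no NFI half-site (TTGGCA) was found on either strand in any of the 7 windows. Any palindrome whose spacer begins with A or ends with T also holds the half-site, so both motifs can share bases. Over 32851 windows of the same length the palindrome was present in 12 and the half-site in 14.1%. The SOX core (ACAATGG, both strands) was present in 3.66% of all windows, and among the members it was found once, in the *Nfix* window printed above, starting at its base 35, where the printed strand reads CCATTGT and the opposite strand ACAATGG.

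Among the members, *Nfia*, *Nfib* and *Nfix* were abundant and *Nfic* and *Zbtb20* were not. Divided by exonic length, the control mean was 263 CPM per kb for *Nfia*, which ranked 149 among 14267 protein-coding genes. *Nfib* had 187 CPM per kb and rank 235, and *Nfix* had 95.3 CPM per kb and rank 558. *Zbtb20* stood at 2.51 CPM per kb and rank 7514, close to *Nfic* at 2.30 CPM per kb and rank 7713. Over the 7 libraries the ranges of *Nfia* (201.04 to 299.8 CPM per kb), *Nfib* (120 to 200.86) and *Nfix* (71.7 to 114) did not overlap, although the lowest *Nfia* and the highest *Nfib* value were close. In every library *Nfia* exceeded *Nfib*, by 1.19 to 1.71 times per kb, and *Nfib* exceeded *Nfix*, by 1.48 to 2.52 times. The order of *Nfia* and *Nfib* rests on the exonic length, and whether reads in introns were counted is not known. Before this division *Nfib* had the higher CPM in control replicate 1 (3004 against 2987) and control replicate 2 (2723 against 2350). The same held in Sox9 replicate 3 (2462 against 2363). In CPM without division by length, *Zbtb20* had a control mean of 77.0 and *Nfic* of 15.2. Per exonic kb, *Zbtb20* and *Nfic* were neighbours that could not be ordered in control, where their ratio was 1.10, 0.985 and 1.22. In Sox9 replicates 1, 2 and 4 the same ratio was 2.23, 1.98 and 2.38, and in Sox9 replicate 3 it was 1.06. The order *Nfia*, *Nfib*, *Nfix*, *Zbtb20*, *Nfic* per exonic kb held in 6 libraries, and control replicate 2 alone had *Nfic* above *Zbtb20* on this scale.

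None of the 5 members was called higher or lower in the Sox9 libraries, where 14.7% of the 16522 genes tested were called, 11.3% as higher and 3.43% as lower. The CPM of both groups did not overlap for 2 of the 5 members, *Nfib* and *Zbtb20*, and this was so for 39.3% of all genes tested. Both also had an unadjusted p under 0.05 in edgeR's test, as had 7276 genes in all. DESeq2 called none of the 5 members, and limma after cyclic loess normalization called *Zbtb20* alone. In these pooled libraries fewer cells of a type and less RNA per cell cannot be told apart.

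**Figure D1:**
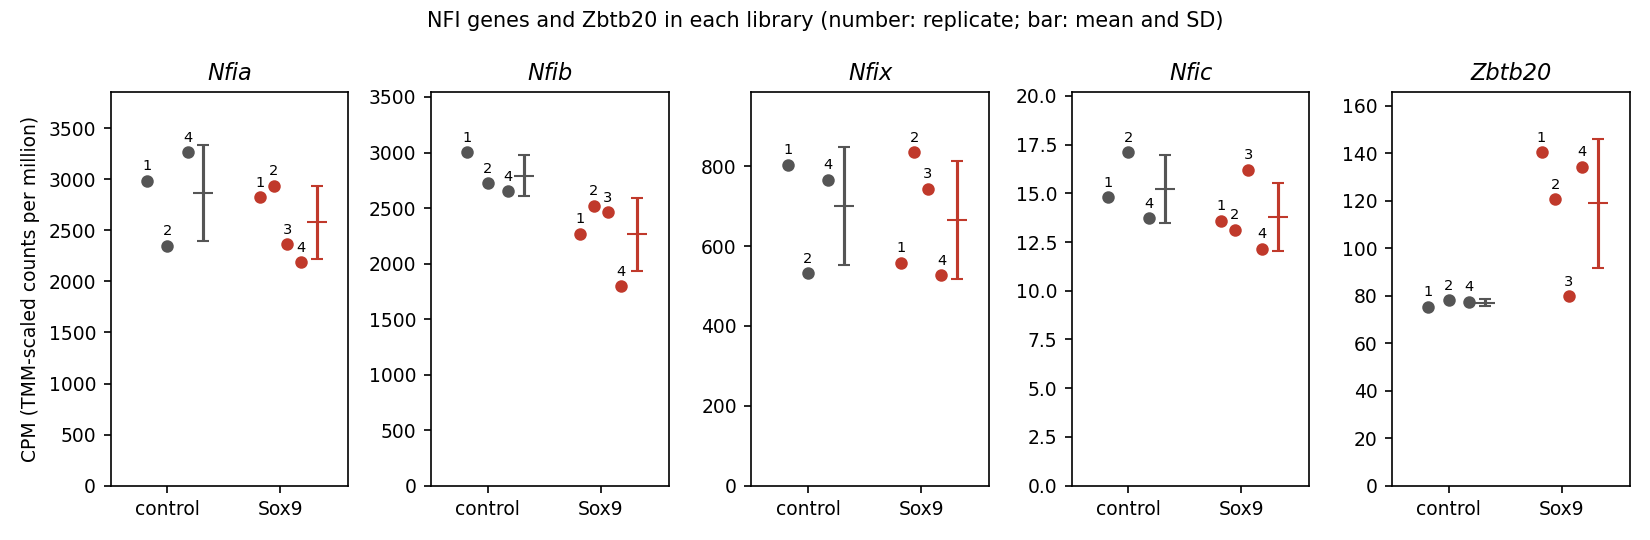
TMM-scaled CPM (vertical axes, linear from 0, one scale per gene) of the 5 members in the 3 control and 4 Sox9 libraries. Points are libraries with their replicate number, and the bars beside them are the mean and SD. The *Zbtb20* points of control lie together near 77.0 CPM with all Sox9 points above them, the *Nfib* points of the Sox9 libraries all lie below control, and the other 3 genes overlap.

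*Nfia*, the NFI gene best known for the start of gliogenesis, had 2987, 2350 and 3266 CPM in control replicates 1, 2 and 4. In Sox9 replicates 1 to 4 it had 2823, 2938, 2363 and 2190 CPM. Control replicate 2 was as low as the lower Sox9 libraries, and the groups overlapped. The log2 fold change was -0.15 ± 0.14 (SE), with a 95% interval from -0.44 to 0.14 and an adjusted p of 0.415 in edgeR's test. The interval leaves room for a level between 0.735 and 1.10 times that of control.

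*Nfib*, which acts beside *Nfia* in the neocortex and in callosal neurons, had 3004, 2723 and 2650 CPM in control. The Sox9 libraries had 2271, 2521, 2462 and 1797 CPM. In TMM-scaled CPM every Sox9 library lay below every control library, and Sox9 replicate 4, the shallowest library, was the lowest. The TMM factors themselves did not overlap between the groups, and in the deposited FPKM, given below, the *Nfib* values of the groups overlapped. This gave a log2 fold change of -0.30 ± 0.12 (SE; 95% interval -0.57 to -0.038). The unadjusted p in edgeR's test was 0.0279 and the adjusted p 0.0735, so the difference was not called.

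*Nfix*, which promotes the differentiation of progenitors and later the quiescence of neural stem cells, varied most among the NFI genes within groups. It had 804, 531 and 766 CPM in control and 558, 835, 744 and 527 CPM in the Sox9 libraries. Each group held both low and high libraries, with Sox9 replicate 2 the highest and Sox9 replicate 4 the lowest of all. The log2 fold change was -0.07 ± 0.17 (SE; 95% interval -0.44 to 0.29; adjusted p 0.780 in edgeR's test). Its sign was reversed in 7 of 17 alternative settings. Among them were cyclic loess with limma and the fits without control replicate 1 or 4 or Sox9 replicate 1 or 4. With DESeq2 size factors in edgeR the value stayed negative (-0.09).

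*Nfic*, best known from tooth root formation and the least abundant NFI gene here, had 14.8, 17.1 and 13.7 CPM in control. The Sox9 libraries had 13.6, 13.1, 16.2 and 12.2 CPM, from 58 to 145 reads a library, and the groups overlapped. The change on the log2 scale was -0.14 ± 0.20 (SE; 95% interval -0.56 to 0.28; adjusted p 0.623 in edgeR's test), the widest interval among the NFI genes.

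*Zbtb20* had the smallest p of the 5 members and was not called either. Its levels were 75.4, 78.1 and 77.5 CPM in control, a coefficient of variation of 1.84%, and 140.5, 120.7, 79.8 and 134.4 CPM in the Sox9 libraries, a coefficient of variation of 23.0%. Every Sox9 library lay above every control library, but Sox9 replicate 3 was barely above them while the other 3 stood well apart. The difference was a log2 fold change of 0.62 ± 0.17 (SE; 95% interval 0.27 to 0.98), which is 1.54-fold (1.20 to 1.97). Its adjusted p of 0.0122 in edgeR's test missed the threshold of 0.01. Without Sox9 replicate 3, the log2 fold change was 0.80 and the adjusted p 0.00119, a call. The call was also made in 4 of the other alternative fits. Among these was the fit with the titles' replicate number as a block. There Sox9 replicate 3 has no control library of its number and adds nothing to the difference, much as when it is left out. The difference kept its sign in all 17 alternatives, from 0.52 to 0.83.

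**Figure D2:**
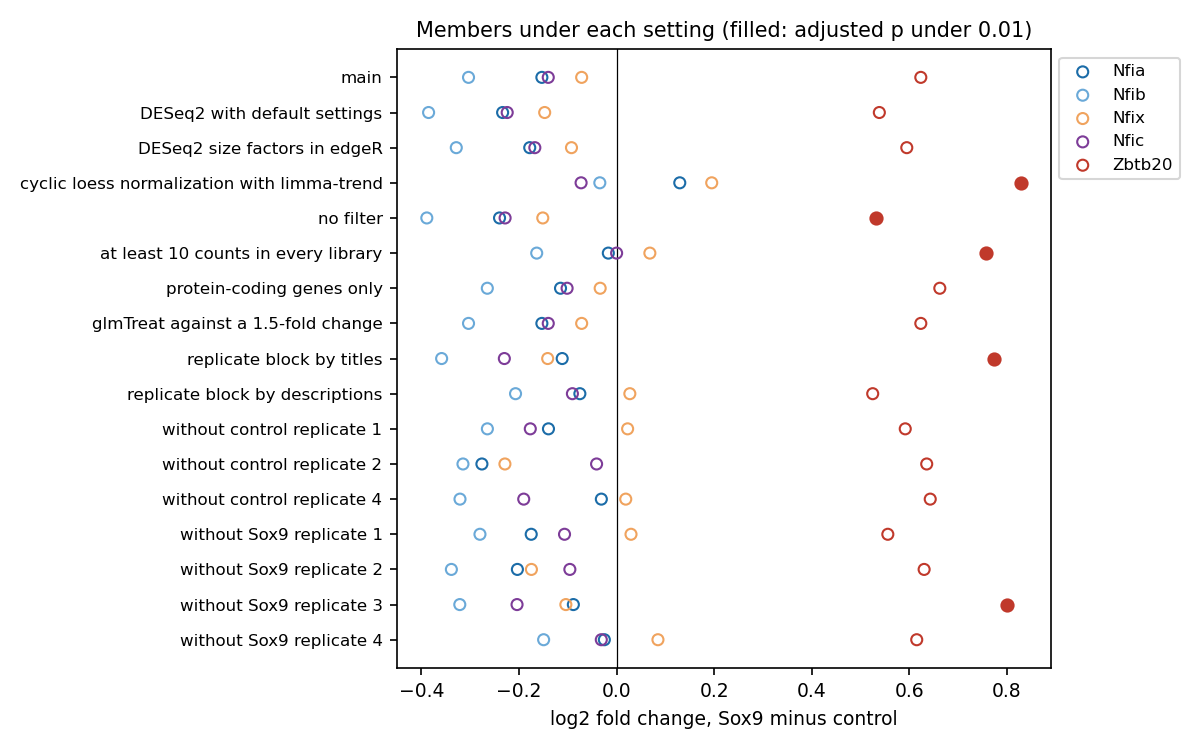
Log2 fold change (horizontal axis, Sox9 minus control) of the 5 members in the fit reported here (top row) and under each alternative fit (other rows). Filled circles have an adjusted p under 0.01. *Zbtb20* stays to the right of 0 in every row and is filled in 5 of them, *Nfib* stays to the left, and *Nfia*, *Nfic* and *Nfix* cross 0 in at least one row.

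Genes of a given abundance give a reference for these changes, because the median log2 fold change depended on the level. Over all genes it was -0.0031, but over the 70 genes at an average log2 CPM between 10 and 12, where *Nfia* and *Nfib* lie, it was -0.25. Of these 70 genes, 15 had a higher log2 fold change than *Nfia* and 42 a higher one than *Nfib*, which places *Nfib* near the middle of its abundance class. *Nfix*, in the class from 8 to 10 with 584 genes and a median of -0.28, had 74 genes above it. *Nfic*, in the class from 2 to 4 with 3466 genes and a median of 0.07, had 2276 genes above it. *Zbtb20* stood at the upper edge of its class. Among 2460 genes at an average log2 CPM between 6 and 8 the median was -0.25, and 16 genes had a higher log2 fold change than *Zbtb20*. In that class 15 genes were called higher and 200 lower.

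**Figure D3:**
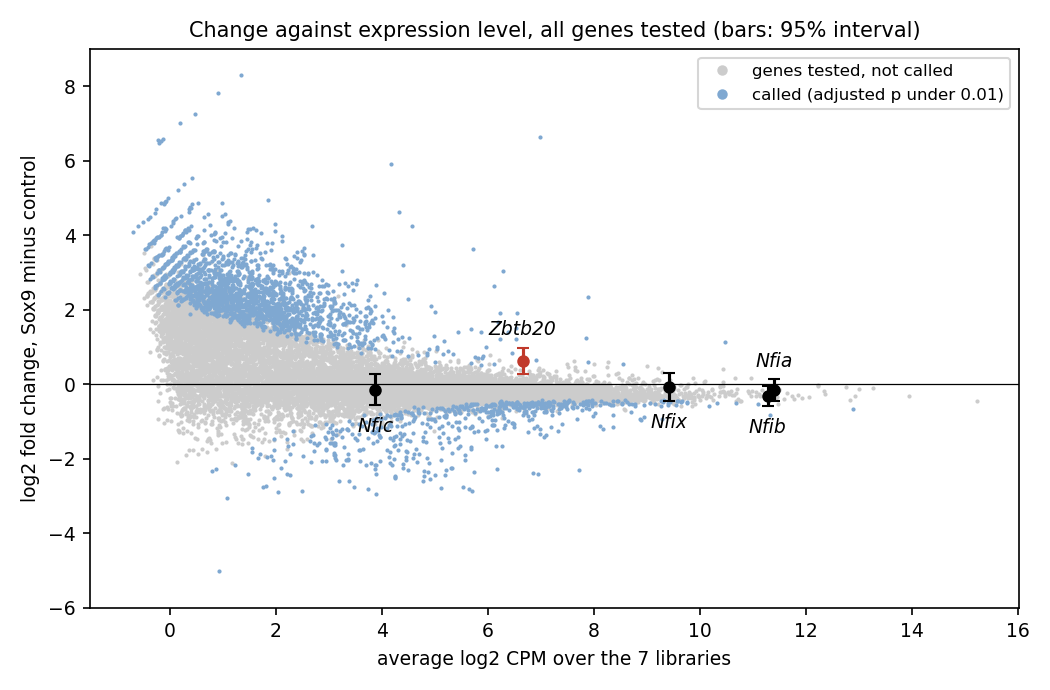
Log2 fold change (vertical axis, Sox9 minus control) against average log2 CPM over the 7 libraries (horizontal axis) for all 16522 genes tested, with called genes in blue. The members are drawn with their 95% intervals. *Zbtb20*, in red at 0.62, lies above nearly all genes of its abundance, and the NFI genes lie within the cloud.

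The proportions of the NFI genes to each other are free of the scaling between libraries. Of the summed NFI level per exonic kb, *Nfia* made up 46.7%, 45.6% and 51.4% in control and 53.0%, 48.7%, 44.7% and 50.9% in the Sox9 libraries. *Nfib* made up 34.4% ± 4.07 (SD, n = 3) and 31.5% ± 1.67 (SD, n = 4), *Nfix* 17.3% ± 1.75 and 18.8% ± 2.47, and *Nfic* 0.427% ± 0.104 and 0.436% ± 0.0628. All 4 shares overlapped between the groups. The smallest p of the 2-sided exact permutation tests was 0.286 (*Nfib*), with Benjamini-Hochberg adjusted values of 0.838 or more over the 4 shares, in a design whose smallest possible p is 0.0286. Summed, the NFI genes had 6810, 5622 and 6695 CPM in control and 5665, 6307, 5586 and 4526 CPM in the Sox9 libraries, again with overlap. These sums, unlike the shares, depend on the TMM scaling.

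Set against the summed NFI CPM of the same library, *Zbtb20* had log2 ratios of -6.50, -6.17 and -6.43 in control. The ratios were -5.33, -5.71, -6.13 and -5.07 in Sox9 replicates 1 to 4. The groups did not overlap, with Sox9 replicate 3 next to control replicate 2. The difference of the means was 0.81, and the 2-sided exact permutation p was 0.0571.

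**Figure D4:**
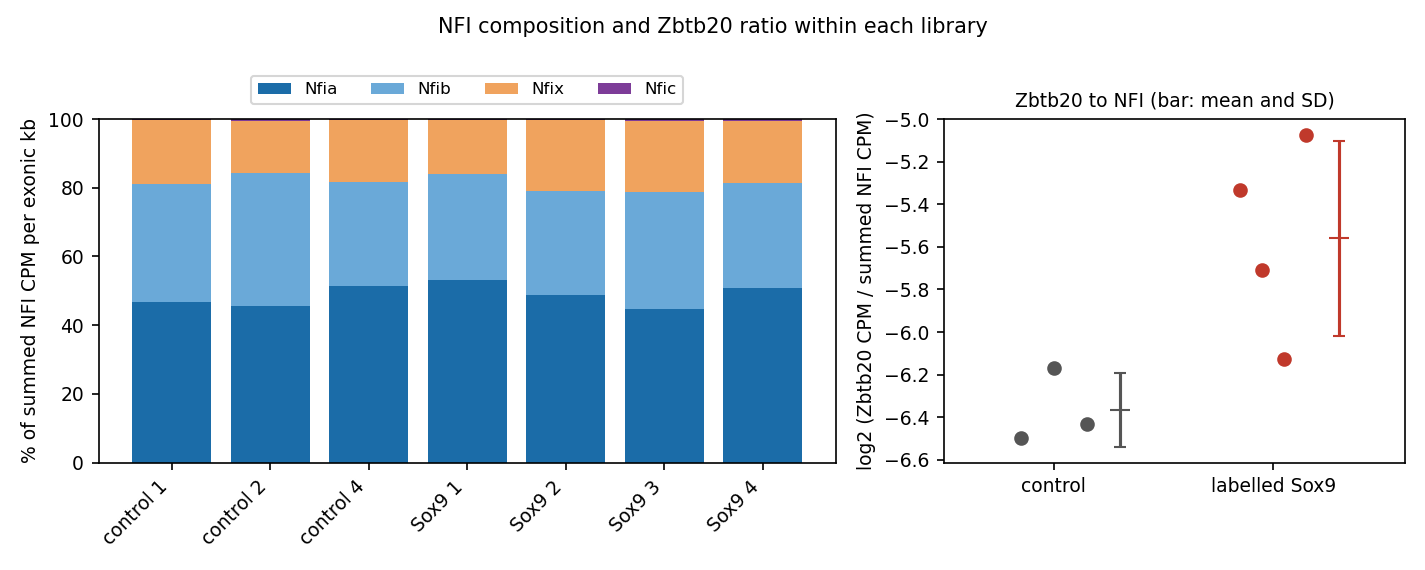
Left, percent of the summed NFI level (CPM per exonic kb, vertical axis) taken by each NFI gene in the 7 libraries; *Nfic*, under 1%, is a hairline at the top of the bars. Right, log2 ratio of *Zbtb20* CPM to summed NFI CPM (vertical axis) with the mean and SD of each group; all 4 Sox9 libraries lie above the 3 control libraries, and the lowest, at -6.13, is close to the highest control at -6.17.

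The deposited FPKM values (fragments per kilobase, scaled to depth) gave the same ordering of groups for *Zbtb20*, with 0.089, 0.091 and 0.095 in control and 0.200, 0.158, 0.114 and 0.189 in the Sox9 libraries. Its mean was 1.80 times that of control. The 2-sided exact permutation p was 0.0571, with a Benjamini-Hochberg adjusted value of 0.286 over the 5 members. The FPKM values of *Nfib* overlapped between the groups, unlike its CPM, with 6.53, 5.84 and 5.99 in control and 5.97, 6.11, 6.48 and 4.66 in the Sox9 libraries. *Nfia*, *Nfic* and *Nfix* overlapped as well, and their exact permutation p-values were 0.543 or more. These FPKM values cannot order the members by level. Over 6894 genes the length they had been divided by could be worked out, and for 91.8% it was within 2% of the whole genomic span, introns included. For *Zbtb20* this length was 766.2 kb against 30.73 kb of exons.

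Other genes lie within the members' spans, and reads there cannot be assigned to a strand because the counting is not described in that respect. *E130114P18Rik*, a protein-coding gene on the opposite strand (chr4:97568133-97778078), covers the first 5345 bases of *Nfia*. It had 232, 480 and 471 reads in control and 94, 88, 76 and 41 in the Sox9 libraries. Every Sox9 library was below every control library, and the gene fell, with a log2 fold change of -1.96 ± 0.26 (SE; adjusted p 2.18e-04 in edgeR's test), while *Nfia* on the other strand was not called. The RefSeq promoter window of *Nfia* also lies within *E130114P18Rik*. Its reads were 0.854% as many as those of *Nfia*.

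Within *Nfib*, the intronic gene *Gm11267* on the same strand (chr4:82585048-82587319) had 14, 11 and 11 reads in control and 28, 27, 53 and 15 in the Sox9 libraries. It rose by a log2 fold change of 1.76 ± 0.43 (SE; adjusted p 0.00764 in edgeR's test), from reads that were 0.0978% as many as those of *Nfib*. Genes of its abundance, at an average log2 CPM between 0 and 2, were called higher in 23.7%, and their median log2 fold change was 1.29. The antisense gene *Gm11266* (chr4:82508016-82547292) had 351, 372 and 353 reads in control and 193, 267, 204 and 154 in the Sox9 libraries. Its log2 fold change of -0.35 ± 0.16 (SE; adjusted p 0.107 in edgeR's test) was not called. In *Zbtb20*, the pseudogene *BC002163* on the same strand had between 18 and 55 reads a library and a log2 fold change of 0.01 ± 0.35 (SE; adjusted p 0.993 in edgeR's test). The other overlapping genes with at least 10 reads in all were removed by the filter. They were *Lyl1* and *G430095P16Rik* in *Nfix*, and *Gm15712*, *Gm9968* and *Gm15713* in *Zbtb20*, with at most 15 reads in a library.

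Of 24 transcription factors and regulators of the switch to gliogenesis, other than the members and *Sox9*, 22 were tested. The 3 higher and 2 lower genes were 13.6% and 9.09% of those tested, against 11.3% and 3.43% over all genes, and the median log2 fold change was -0.21. With single libraries left out 2 to 4 were higher and 1 to 6 lower, and over all alternatives 1 to 7 were higher and 0 to 8 lower. *Tcf7l2*, a nuclear partner of beta-catenin in Wnt signalling, had 44.3, 88.3 and 79.1 CPM in control and 548, 456, 136 and 304 CPM in the Sox9 libraries. No control library reached the Sox9 range, in which replicate 3 was lowest, as it was for *Zbtb20*. The log2 fold change of *Tcf7l2* was 2.35 ± 0.36 (SE; adjusted p 6.15e-04 in edgeR's test). *Pou3f2*, a POU factor of upper-layer neurons and progenitors, fell by 0.88 on the log2 scale (adjusted p 0.00104). *Olig1* and *Olig2*, basic helix-loop-helix factors of the oligodendrocyte lineage, had at most 3 reads in any control library, and were at least 6.99-fold and at least 5.87-fold higher in the Sox9 libraries when control was set to 3 reads a library. The fifth called gene was *Etv5*, an ETS factor, which fell by 1.29 and was named after its values were seen.

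Of 16 genes known as targets of NFIA or Sox9 in astroglia, 14 were tested. Of these, 3 were higher (21.4%) and 5 lower (35.7%), against 11.3% and 3.43% over all genes. The median log2 fold change was -0.37. The higher calls fell to 0 under cyclic loess, with the titles' replicate number as a block, and without control replicate 1 or control replicate 2, and were 1 or 2 when one of the other libraries was left out. The lower calls numbered 4 to 7 in the alternatives, and 3 of the 5 (*Tnc*, *Slc1a3* and *Fabp7*) are also radial glia markers, a list whose 13 tested genes all had log2 fold changes below 0. The matrix glycoprotein gene *Tnc* fell by 2.75 on the log2 scale, from 89.4 CPM ± 44.4 (SD, n = 3) to 13.4 CPM ± 2.56 (SD, n = 4). *Aldoc*, a glycolytic aldolase, fell by 2.42 and the glutamate transporter gene *Slc1a3* fell by 1.33. *Aldh1l1*, a folate enzyme gene of astrocytes, fell by 1.86. The other lower gene was *Fabp7*, and the higher ones were *Agt*, *Slc1a2* and *S100b*, which were named after their values were seen. *Slc1a2* rose from 4.10 CPM ± 0.318 to 9.39 CPM ± 0.804, and the other higher genes had at most 24 reads in a library.

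Of 16 neurogenic factors, all tested, none was higher and 2 were lower (12.5%, against 3.43% over all genes), with a median of -0.23. The lower count was 1 to 5 in the alternatives. *Eomes*, the T-box factor of intermediate progenitors, fell by 2.25 on the log2 scale (adjusted p 4.87e-05 in edgeR's test), and *Neurod4* fell by 2.88 (adjusted p 0.00182). *Neurod1* and *Neurod6*, factors of differentiating neurons, had log2 fold changes of -0.71 and -0.36 and were not called. *Neurod6*, like *Nfib*, had every Sox9 library below control (adjusted p 0.0206). The BTB zinc finger list was taken by symbols that start with Zbtb, and it includes *Zbtb8os*, which does not encode such a protein. Of its 38 genes tested besides *Zbtb20*, 3 were higher (7.89%, against 11.3% over all genes) and 1 lower, with a median of -0.08. With single libraries left out, 1 or 2 were higher and 0 or 1 lower. *Zbtb16*, a repressor of the same family, rose from 1.13 CPM ± 0.174 to 7.77 CPM ± 2.59 (log2 fold change 2.75; adjusted p 3.55e-04). *Zbtb32* rose by a log2 fold change of 2.71, from at most 4 reads in a control library, *Zbtb40* rose by 0.76 and *Zbtb38* fell by 0.58.

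**Figure D5:**
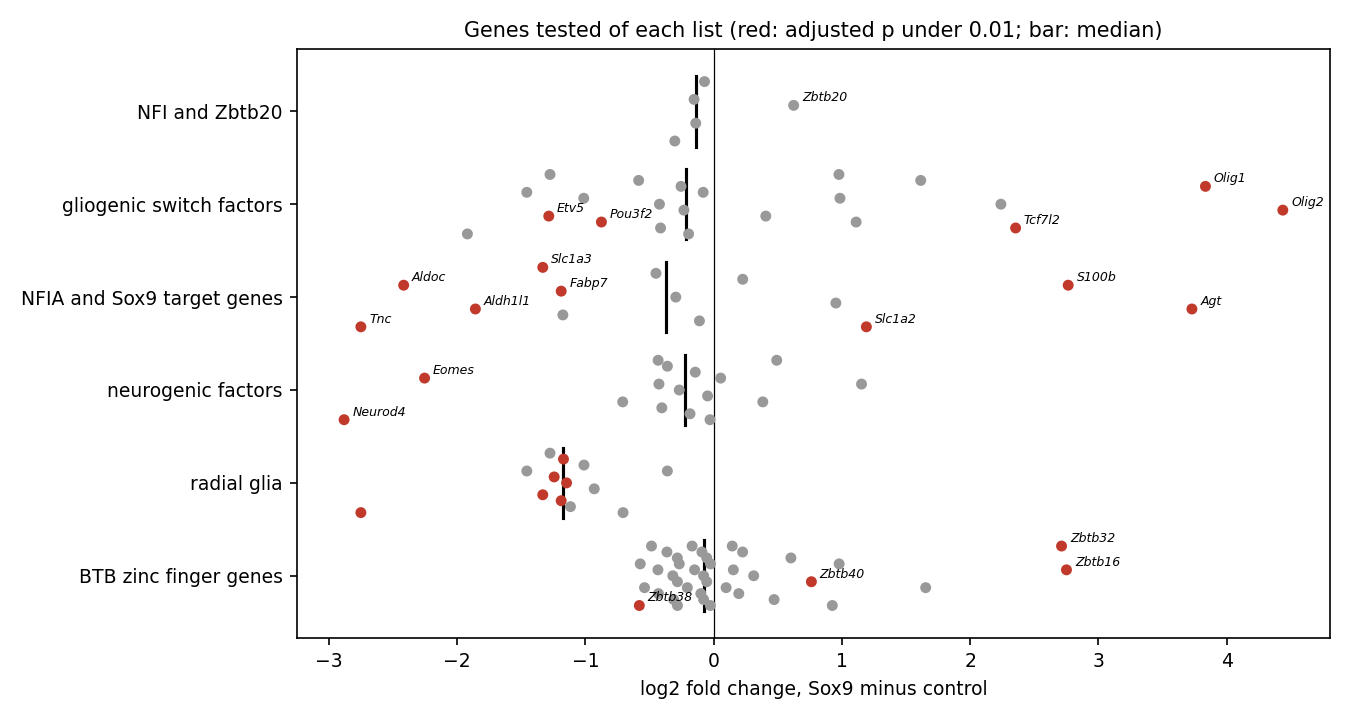
Log2 fold change (horizontal axis, Sox9 minus control) of the members (top row) and of the genes tested in 5 lists; the vertical scatter within a row has no meaning. Red points have an adjusted p under 0.01 and the black bar is the median of the row. *Zbtb20* is the only member to the right of 0, no member is red, and the radial glia genes all lie to the left of 0. Fitted values of *Olig1*, *Olig2* and *Agt* rest on at most 3 reads in each control library.

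Markers of the cell types that could share a sort with these cells were counted next. Many of them are rare here, and of all 3686 genes at an average log2 CPM between 0 and 2, 23.7% were called higher, while no radial glia or neuron marker lay in that class. The summed CPM of 14 radial glia genes was 889 to 1493 in control and 519 to 645 in the Sox9 libraries. Of 13 tested, 6 were lower (46.2%, against 3.43% over all genes) and none higher, with 3 of these 6 already counted among the NFIA and Sox9 targets. Astrocyte genes, 5 of which are also on the list of NFIA and Sox9 targets, gave 2 higher and 2 lower of 8. No neuron marker of 12 was called, with a median log2 fold change of 0.02. Of oligodendrocyte precursor genes 5 of 7 were higher, with summed CPM of 8.03 to 8.85 in control and 18.6 to 52.7 in the Sox9 libraries. Their median log2 fold change was 3.70, or 2.81 with genes of at most 3 control reads at their lower bound. Choroid plexus genes rose in 5 of 7 tested (summed CPM 12.5 to 15.8 and 63.3 to 168). Of endothelial genes 2 of 9 were higher (22.2%; summed CPM 7.36 to 17.8 and 25.0 to 59.4) and of mural and meningeal genes 2 of 8 (25.0%; 10.6 to 12.5 and 19.2 to 38.5), of which *Cspg4* is also counted among the oligodendrocyte precursor genes. In these groups 8 of 9 and 7 of 8 genes lay at that low abundance, and their shares were near the share of all genes there. Microglial and erythroid genes gave 1 higher each, of 10 and of 6, and 1 of 5 genes of the ventral interneuron lineage was lower. No marker on these lists was at 0 in every library. Of 1372 chemoreceptor genes, which belong to sensory neurons, the filter left 99, and 13 of these were higher and none lower. That is 13.1%, near the share over all genes and below that of genes of low abundance (summed CPM of the 1372 genes 113 to 155 and 342 to 481). Of these 99 genes, 97 had log2 fold changes above 0, with a median of 1.70 against -0.0031 over all genes. Among genes at an average log2 CPM between 0 and 2, where 88 of the 99 lay, the median was 1.29. Of 523 genes of at least 300 kb, a class that holds *Nfia*, *Nfib* and *Zbtb20*, 82 were higher (15.7%) and 15 lower (2.87%), against 11.3% and 3.43% over all genes, with a median of 0.24. The part of these cell types and of gene length in the *Zbtb20* difference was not tested.

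The genes whose pattern over the 7 libraries was most like each member were found by the root mean square difference of log2 CPM after centring on the mean. For *Zbtb20* they were *Cep128* (0.093), *Chn2* and *Scube3*, and none of these was called. For *Nfib* they were *Dcun1d4* (0.038), *Eif4b* and *Nolc1*, for *Nfia* *Lpgat1* (0.054), *Rnf5* and *Megf9*, for *Nfix* *Eef2k* (0.076), *Rnf123* and *Zfp64*, and for *Nfic* *Shmt2* (0.056), *Ptpn23* and *Ilkap*. No member was among the 3 nearest genes of another. Among the pairs of NFI genes the difference was smallest for *Nfib* and *Nfic* (0.17), followed by *Nfia* and *Nfib* (0.20), *Nfia* and *Nfix* (0.21) and *Nfib* and *Nfix* (0.23). It was larger for *Nfia* and *Nfic* (0.28) and for *Nfic* and *Nfix* (0.32). The median over all protein-coding genes tested was between 0.36 (*Nfic*) and 0.44 (*Nfix*). *Zbtb20* differed from the NFI genes by 0.46 (*Nfia*) to 0.57 (*Nfib*), near its median of 0.54 over all genes.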

How the data were processed

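RNA of sorted cells was copied from poly-dT primers with template switching and amplified without molecular identifiers. Per the labels and the study's methods, the authors mapped single-end reads with STAR 2.5.2b (submitters' processing notes) to GRCm38/mm10 and deposited a table of raw counts per gene. The authors also deposited FPKM values, whose length is the genomic span for most genes. The counting program and the use of strand and introns are not given in the sources used here. Groups came from the sample titles. Symbols and lengths came from GENCODE vM21, which matched 36345 of 38124 gene IDs.

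Counts were filtered with filterByExpr, scaled by TMM and tested with edgeR 4.0.16 (quasi-likelihood test, no covariates, R 4.3.3) over all 16522 genes, with Benjamini-Hochberg adjustment and a threshold of 0.01. The script was tested on simulated data. Shares, FPKM values and ratios were compared with 2-sided exact permutation tests over 35 arrangements. DESeq2 1.42.0, limma 3.58.1 with cyclic loess, other filters and leaving out each library were alternatives. The members, gene lists and alternatives were chosen with earlier results of these data known. The text names the members, *Sox9*, 5 marker genes, the 4 genes of smallest p in each of 4 lists, the 3 genes nearest each member and overlapping genes with at least 10 counts. Outside this rule, *Etv5*, *Fabp7*, *Agt*, *Slc1a2* and *S100b* were named after their values were seen, and *Cspg4* and *Zbtb8os* were named to describe their lists. The bins of expression level and the sequences shown were chosen after the values were seen. Replicates are separate pools of sorted cells per the labels, and each pair of libraries within a group differed beyond sampling noise. At the lowest count, the counting error was 0.979% for *Nfia* and 13.1% for *Nfic*; p-values and intervals rest on 3 and 4 libraries.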

Additional observations from a re-analysis of the deposited data

How the results depend on the processing

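The sign of *Zbtb20* was positive and that of *Nfib* negative in the 17 alternatives tried. *Zbtb20* was called under cyclic loess normalization with limma (log2 fold change 0.83), without a filter (0.53), with at least 10 counts in every library (0.76), with the replicate number of the titles as a block (0.77) and, as reported (0.62), at an adjusted p under 0.05, so that 1 member was called higher in each. In the block from the titles, Sox9 replicate 3 has no control library of its number and adds nothing to the difference. *Zbtb20* was not called with DESeq2. With each library left out it ranged from 0.56 to 0.80 and adjusted p from 0.00119 to 0.0378, and 0 or 1 member was called. No member was called lower in any alternative. Whether libraries with the same replicate number were prepared together is not known. The correlations of same-numbered deviations were -0.0356, 0.118 and -0.00485 for the titles and at most 0.118 for the descriptions, where the block gave *Zbtb20* 0.52 (adjusted p 0.0379).

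The sign was reversed in 1 of the 17 alternatives for *Nfia*, in 1 for *Nfic* and in 7 for *Nfix*. *Nfia* reached 0.13 under cyclic loess, which centres genes at each level of abundance. *Nfix* reached 0.19 there, 0.068 with at least 10 counts in every library and 0.027 with the block from the descriptions. *Nfic* was 5.56e-05 with at least 10 counts. Leaving out single libraries gave -0.28 to -0.03 for *Nfia*, -0.34 to -0.15 for *Nfib*, -0.20 to -0.03 for *Nfic* and -0.23 to 0.085 for *Nfix*, and -0.99 to -0.37 for *Sox9*. *Sox9* was called lower without a filter (-0.78), without control replicate 1 (-0.99, adjusted p 0.00281) and at 0.05 (-0.68). The difference in the *Nfic* share ranged from -0.0271 to 0.0684 percentage points. FPKM differences ranged from -0.394 to 1.01 for *Nfia*, from -0.544 to 0.0623 for *Nfib*, from -0.00333 to 0.0455 for *Nfic* and from -0.149 to 1.14 for *Nfix*. The causes were not tested.

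Of the gliogenic, target and neurogenic lists together, 6 genes were called higher and 9 lower. The higher count was 1 under cyclic loess, 2 with at least 10 counts, 1 and 3 with the blocks from titles and descriptions, 10 at 0.05 and 2 to 6 with single libraries left out. The lower count was 17 with DESeq2, 20 without a filter, 18 at 0.05 and 7 to 13 with libraries left out. Over all genes 2429 were called, against 647 under cyclic loess, 842 with at least 10 counts, 1032 against a 1.5-fold change, 618 and 1387 with the blocks, 4113 without a filter, and 1035 to 1938 with libraries left out. The higher share of calls was 76.7%, against 56.1% under cyclic loess, 59.8% with DESeq2, 64.7% without a filter, 64.7% with the block from the titles, 86.1% against a 1.5-fold change and 69.4% to 83.9% with libraries left out. The median log2 fold change over 32483 genes was 0.51 without a filter and 0.54 with DESeq2.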
